A study of Mus musculus with 6 samples.

Results

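The clustered protocadherins were taken as the genes on mouse chromosome 18 (mm9, GENCODE vM1) whose symbols begin with Pcdha, Pcdhb, Pcdhga, Pcdhgb or Pcdhgc, which gave 25 of 37310 annotated genes. The set was chosen on measured values, because it was proposed with the C2C12 peak lists in view. The number of peaks in these genes is therefore given as a description, with no test.

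YTHDC1 binding was profiled by LACE-seq, in which proteins are fixed to RNA by UV light, YTHDC1 is pulled down with an antibody and reverse transcription stops at the crosslinked nucleotide. Peaks of 6 libraries were analysed. ASC-48 hr are mouse muscle satellite cells taken 48 hr into culture, from 2 biological replicates (B1, B2) that were each run as 2 technical replicates (T1, T2), so that the 4 libraries stand for 2 cultures. C2C12 is an established mouse myoblast line with 2 libraries, which are numbered as biological replicates by the labels and as technical replicates by the text of the study, so that the spread between them may be technical. All libraries were labelled WT for treatment, all cells were UV crosslinked and all pull-downs used the same antibody. No library without the antibody or without YTHDC1 was analysed here, and no input RNA. The growth conditions given for the ASC-48 hr libraries name C2C12, so the labels do not describe the ASC culture itself.

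Clustered protocadherins are cadherin-like cell-surface proteins that are best known for giving neurons distinct surface identities. In the alpha and gamma clusters each large variable exon has its own promoter, encodes the extracellular, membrane-spanning and proximal intracellular parts, and is spliced to constant exons that all members of the cluster share. Beta genes consist essentially of a single large exon and have no constant exons. YTHDC1 is a nuclear reader of N6-methyladenosine in RNA and is known for roles in splicing and export.

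The annotation merges most alpha members into 1 gene, Pcdha11, and the gamma members that it lists into 1 gene, Pcdhgc5. The Pcdhgc5 entry starts at the Pcdhga3 exon, so any gamma exon upstream of that was not counted. The 25 genes are therefore 2 alpha genes, 22 beta genes and 1 gamma gene, of which Pcdhb20 is a pseudogene and the other 24 are protein-coding. Their annotated transcripts held 41 variable exons, 10 in the alpha cluster, 22 in the beta cluster and 9 in the gamma cluster. Of the 19 alpha and gamma variable exons, 14 were named by the exact match of their distance from the cluster's 3′ end to the length of a RefSeq gene and Pcdha3 by its own gene entry. The remaining 4 are called by their transcript, such as Pcdhgc5-210. In these introns 15 open reading frames of at least 1800 nt lay outside annotated exons, 4 in the alpha cluster and 11 in the gamma cluster, so that the annotation used does not list every variable exon.

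In C2C12 myoblasts, YTHDC1 peaks lay in the beta and gamma clusters and mostly in exons, whereas the alpha cluster held 1 peak in each library. Because the reads are of cDNA, a peak was counted when it lay inside a gene on the strand opposite to it, which is called the RNA strand here. C2C12 1 held 128 such peaks of 60540 in the library, or 0.211%, and C2C12 2 held 123 of 71992, or 0.171%. A peak of C2C12 1 that overlapped a peak of C2C12 2 by at least 1 nt is called shared, and 69 of 29087 shared peaks lay in these genes. Of the 24 protein-coding members 13 held a shared peak, or 54.2% (exact Clopper-Pearson 95% interval 32.8% to 74.4%), where the background over all protein-coding genes was 21.8%. This contrast was in view when the set was chosen, so nothing is read from the difference. Among the 13, Pcdha11, Pcdhb7, Pcdhb11, Pcdhb12, Pcdhb13 and Pcdhb14 held only shared peaks whose first 20 nt occur more than once in the genome. The peak lists cannot tell a larger amount of an RNA from more YTHDC1 on each RNA molecule, which holds for every count below.

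Across the clusters, C2C12 1 and C2C12 2 gave like counts. The beta genes held 61 peaks with 616 reads in C2C12 1 and 61 peaks with 598 reads in C2C12 2. The gamma gene held 66 peaks with 604 reads in C2C12 1 and 61 peaks with 564 reads in C2C12 2. In the alpha cluster each library listed a single peak of 8 reads, at chr18:37202621-37202640 in an intron, and its 20-nt sequence occurs 6 times in the genome. Of the peaks of C2C12 1, 65.6% (52.3% to 77.3%) of those in the beta genes and 42.4% (30.3% to 55.2%) of those in the gamma gene overlapped a peak of C2C12 2, against 48% of all peaks of that library. Seen from C2C12 2, the shares were 65.6% for beta, 47.5% (34.6% to 60.7%) for gamma and 40.4% for all its peaks. Introns held 16 of the 66 gamma peaks in C2C12 1 and 15 of the 61 in C2C12 2, of which 10 in each library lay in open reading frames outside annotated exons, and none of the beta peaks. On the strand of the genes themselves each C2C12 library held 3 peaks. These intervals and those below cover counting error across peaks only, and neighbouring peaks of 1 RNA are not independent.

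By region, 57 of the 69 shared peaks lay in variable exons, or 82.6% (71.6% to 90.7%), 7 lay in constant exons, or 10.1% (4.18% to 19.8%), and 5 lay in introns, or 7.25% (2.39% to 16.1%). All 40 beta peaks were in the beta exons. The 28 gamma peaks were divided into 17 in variable exons, 7 in the constant exons and 4 in introns. Without the pseudogene Pcdhb20, exons of any kind held 59 of 64 shared peaks of the protein-coding members, or 92.2% (82.7% to 97.4%), beside 67.6% (66.9% to 68.3%) of the 19130 shared peaks in other protein-coding genes. Coding sequence held 52 of the 64, or 81.2% (69.5% to 89.9%), and 41.9% (41.2% to 42.6%) of the others. The members' coding sequence is mostly large single exons, so large coding exons elsewhere are set beside it next.

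Per length of coding exon, shared peaks are given for each cluster beside other long coding exons. These are the peaks that were in view when the set was chosen, so the values are a description and the intervals no test. Among coding exons of at least 2000 nt, the background share with a shared peak was 36.7% over all 695. It was 36.3% (32.6% to 40.2%) in the 655 exons of other genes and 42.5% (27.0% to 59.1%) in the 40 exons of the members. These shares count peaks on repeated sequence. Of the members' shared coding peaks 51.9% have a sequence that occurs once in the genome, against 81.5% in coding exons of other genes. The beta exons held 34 shared peaks, or 0.678 per kb (exact Poisson 95% interval 0.470 to 0.948), and the gamma exons 16, or 0.727 per kb (0.415 to 1.18). Only 12 of the 34 beta peaks have a sequence that occurs once in the genome, and a read may be counted at up to 10 positions. Other long coding exons held 0.679 per kb (0.644 to 0.715). The 10 alpha exons held 0 shared peaks in 24.24 kb, which allows up to 0.152 per kb. The alpha exons also held no unshared peak in either C2C12 library.

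**Figure D1:**
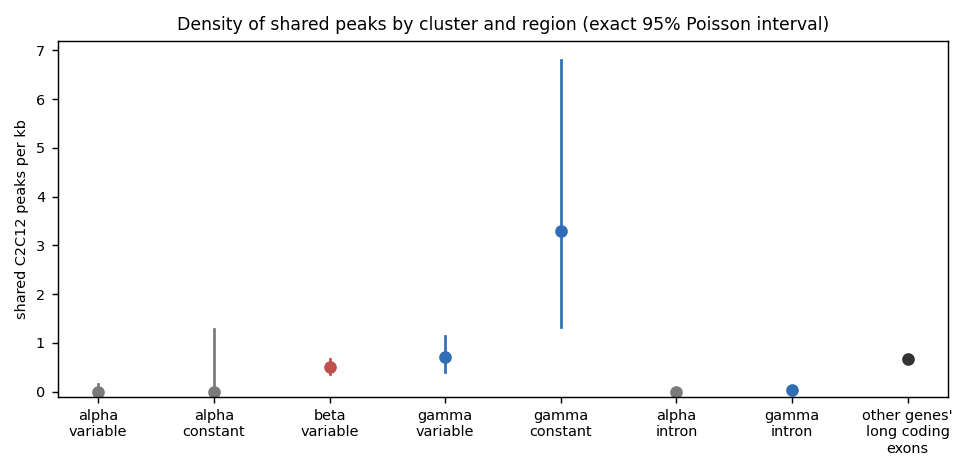
Shared C2C12 peaks per kb (vertical axis) in the variable exons, constant exons and introns of each cluster and in coding exons of at least 2000 nt of other genes. Points are densities and lines exact 95% Poisson intervals. The gamma constant exons stand at 3.30 per kb, the alpha variable exons at 0, and the beta and gamma variable exons at 0.500 and 0.709 per kb. Variable exons are taken whole, with UTRs and the pseudogene Pcdhb20, whereas the other genes' exons are coding sequence only. Over coding sequence alone, not drawn, the beta exons stand at 0.678 and the gamma exons at 0.727 per kb.

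Within the beta cluster the peaks were gathered at its 3′ side. The 10 genes Pcdhb1 to Pcdhb10 held 2 peaks in C2C12 1, 3 in C2C12 2 and 1 shared peak, whereas the 12 genes Pcdhb11 to Pcdhb22 held 59, 58 and 39. The 5 beta genes with the most shared peaks were Pcdhb16, Pcdhb18, Pcdhb20, Pcdhb17 and Pcdhb19, which are neighbours on the chromosome. Together they held 29 of the 40 shared beta peaks.

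Pcdhb16 (chr18:37637422-37642689) held 10 peaks with 90 reads in C2C12 1 and 11 peaks with 100 reads in C2C12 2, and 7 were shared. Pcdhb18 (chr18:37649119-37654159) held 9 peaks in each library, with 95 and 79 reads, and 7 shared. Both encode beta protocadherins, whose extracellular part is built of cadherin repeats, and by peaks no beta gene stood above them in either library, with Pcdhb22 level with Pcdhb18 in C2C12 1. The pseudogene Pcdhb20 (chr18:37663926-37667476) held 7 peaks with 83 reads in C2C12 1 and 8 with 100 reads in C2C12 2, with 5 shared. Pcdhb17 (chr18:37644675-37647943) held 8 peaks in each library, with 89 reads in C2C12 1 and 71 in C2C12 2, and 5 shared. Pcdhb19 (chr18:37656651-37663781) held 7 peaks with 63 reads and 6 with 54 reads, and 5 shared. The order of these genes by reads differed between the libraries, with Pcdhb18 first in C2C12 1 and Pcdhb16 and Pcdhb20 level in C2C12 2, so their order is within the spread of the libraries.

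The other beta genes held fewer shared peaks. Pcdhb22, with 9 and 6 peaks, had 4 shared and Pcdhb14 had 2. Pcdhb7, Pcdhb11, Pcdhb12, Pcdhb13 and Pcdhb15 had 1 each. Pcdhb21 lies between Pcdhb20 and Pcdhb22 and held 3 peaks in each library, none of which overlapped. Pcdhb3 had a single peak in C2C12 1 and Pcdhb2 and Pcdhb4 a single peak in C2C12 2, each of 6 reads, the lowest number that these libraries list. Pcdhb1, Pcdhb5, Pcdhb6, Pcdhb8, Pcdhb9 and Pcdhb10 had none in either library.

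**Figure D2:**
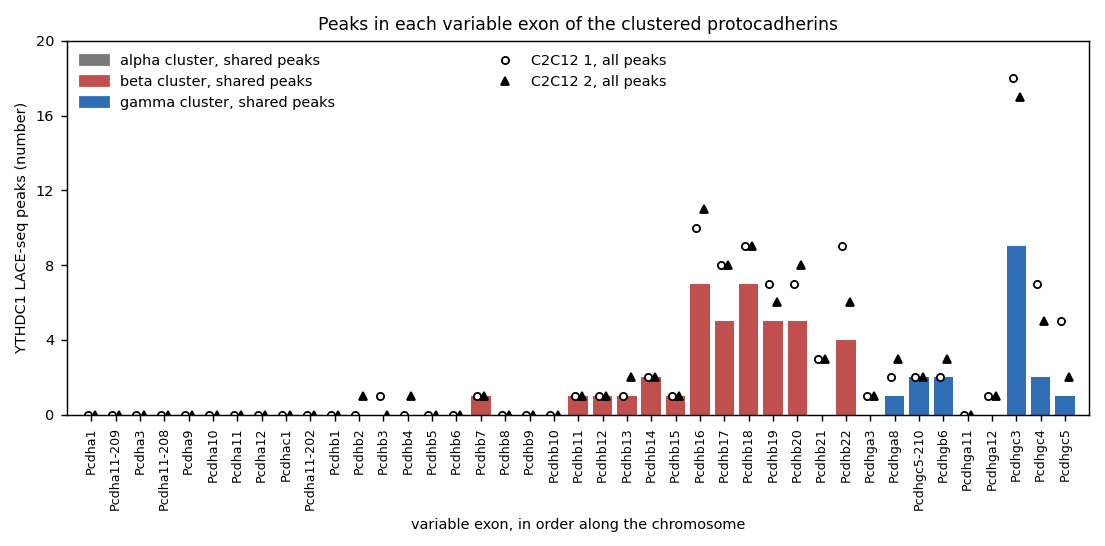
Number of YTHDC1 peaks on the RNA strand (vertical axis) in each of the 41 annotated variable exons, ordered along the chromosome. Bars are shared peaks, coloured by cluster, and open circles and black triangles are all peaks of C2C12 1 and C2C12 2; Pcdhgc3 reaches 18 and 17 peaks, and the 10 alpha exons are at 0.

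Among the gamma variable exons Pcdhgc3 held the most peaks. Pcdhgc3, Pcdhgc4 and Pcdhgc5 are the C-type members at the 3′ end of the cluster, next to the constant exons. The Pcdhgc3 exon (chr18:37966064-37968631) held 18 peaks with 203 reads in C2C12 1 and 17 peaks with 186 reads in C2C12 2, and 9 were shared. In both libraries this was above every other variable exon of the 3 clusters by peaks and by reads. Pcdhgc4 (chr18:37974733-37977637) held 7 peaks with 52 reads in C2C12 1 and 5 peaks with 39 reads in C2C12 2, with 2 shared. Pcdhgc5 (chr18:37979200-37981788) held 5 peaks with 41 reads and 2 with 14 reads, with 1 shared.

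The annotated gamma variable exons upstream of the C-type members held few peaks, and the type of Pcdhgc5-210 was not assigned. Pcdhgc5-210 (chr18:37896590-37899197) held 2 peaks with 18 reads in each library, and both were shared. Pcdhgb6 (chr18:37901748-37904312) held 2 peaks with 16 reads in C2C12 1, 3 with 30 reads in C2C12 2, and 2 shared. Pcdhga8 had 2 and 3 peaks with 1 shared. Pcdhga3 and Pcdhga12 had 1 peak in each library at different places, and Pcdhga11 had none. Of the open reading frames outside annotated exons, the 11 gamma ones held 10 peaks in each library and 1 of them held 3 shared peaks, while the 4 alpha ones held none.

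The gamma constant exons held more peaks per length than the gamma variable exons. They held 7 shared peaks in 2.12 kb, or 3.30 per kb (1.33 to 6.81), against 17 in 24.0 kb, or 0.709 per kb (0.413 to 1.14). The ratio of the densities was 4.66 (exact binomial 95% interval 1.63 to 11.8). It was 8.38 when the open reading frames outside annotated exons were counted as variable exons, an alternative chosen after seeing the data, and 7.54 with peaks of p of at most 0.00001. With the peaks of a single library it was lower, at 3.57 in C2C12 1 and 3.99 in C2C12 2. The constant exons belong to the transcripts of all gamma members and a variable exon to those of 1 member, and how much of this ratio follows from that was not tested. All 7 peaks lay in the last constant exon (chr18:37999557-38001527), with 2 in its coding part and 5 in its 3′UTR. That exon held 12 peaks with 135 reads in C2C12 1 and 12 peaks with 139 reads in C2C12 2. The first and second gamma constant exons, of 59 and 89 nt, held none. The 3 alpha constant exons, 2.86 kb in all, held no peak in either library, which allows up to 1.29 shared peaks per kb.

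The highest shared peaks of the gamma cluster were in the constant 3′UTR and in Pcdhgc3. The peak at chr18:38000101-38000120 in the constant 3′UTR had 16 reads in C2C12 1 and 17 in C2C12 2, a mean of 16.5 ± 0.707 (SD, n = 2). The peak at chr18:38000281-38000320, in the same 3′UTR, and the peak at chr18:37967261-37967280 in Pcdhgc3 each had 17 reads per bin in C2C12 1 and 13 in C2C12 2, a mean of 15 ± 2.83 (SD, n = 2). Among the beta genes the highest were a peak of Pcdhb20 at chr18:37665741-37665760, with 16 and 17 reads, a peak of Pcdhb7 at chr18:37503221-37503240, with 13 and 19 reads, and a second peak of Pcdhb20 at chr18:37665861-37665880, with 16 and 14 reads. The 3 gamma peaks have sequences that occur once in the genome, and the 3 beta peaks have sequences that occur 17, 17 and 10 times.

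By their first 20 nt alone, most beta peaks could not be assigned to a single gene. Reads may run past these 20 nt, and assignment by whole reads was not tested. The authors placed each read at up to 10 positions with the same number of mismatches, so that a read may be counted at several copies of its sequence. The first 20 nt of 26 of the 40 shared beta peaks occur more than once in the genome, up to 18 times, and 24 of the 26 have all their copies inside the clusters. For 12 of them the copies number more than 10. With up to 2 mismatches, 33 of 40 had a further copy in the clusters. By contrast 22 of 28 gamma peaks were of single-copy sequence, including all 7 of the constant exons and all 9 of Pcdhgc3. Over coding sequence, 51.9% of the members' shared peaks were single-copy, against 81.5% in coding exons of other genes.

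With single-copy peaks alone, 36 of the 69 remained, 14 beta and 22 gamma. Pcdhb16 kept 4 of its 7 peaks, Pcdhb17 kept 2 of 5, Pcdhb18 2 of 7, Pcdhb19 2 of 5, Pcdhb20 1 of 5 and Pcdhb22 2 of 4. Pcdhb15 kept its 1 peak, which has near copies with up to 2 mismatches. Pcdhb7, Pcdhb11, Pcdhb12, Pcdhb13 and Pcdhb14 kept none, so that the first 20 nt of their peaks are sequence that other beta genes also hold. The peak of Pcdhb7, for example, has a 20-nt sequence found in 17 members, of which 11 held a shared peak somewhere.

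The beta peaks lay at recurring places of the coding sequence. Distances are from the first coding base to the middle of the peak. The 34 coding peaks of 11 beta genes had a median distance of 1676 nt and ranged from 218 to 2318 nt. Joining each peak to the next one along the coding sequence when they lay within 30 nt gave 14 places. Of these places 5 held peaks of at least 3 genes and 24 of the 34 peaks. At 1656 to 1678 nt lay peaks of 8 genes, Pcdhb11, Pcdhb13, Pcdhb14, Pcdhb15, Pcdhb16, Pcdhb18, Pcdhb19 and Pcdhb22, and 7 of the 8 have sequences in several copies. At 1932 to 1948 nt lay peaks of 5 genes, all of multi-copy sequence. At 1456 to 1488 nt lay peaks of Pcdhb16, Pcdhb17, Pcdhb18, Pcdhb19 and Pcdhb22, and 4 of these 5 are single-copy. Of these 4, the peaks of Pcdhb17, Pcdhb19 and Pcdhb22 lie at 1456 to 1463 nt and have 11 to 19 copies in the clusters at up to 2 mismatches, and that of Pcdhb16 lies apart at 1488 nt with 2.

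Along the coding sequence, 31 of 34 beta peaks, or 91.2% (76.3% to 98.1%), lay beyond its midpoint, whereas 7 of 16 gamma peaks did, or 43.8% (19.8% to 70.1%). Among single-copy beta peaks the share beyond the midpoint was 9 of 12, or 75% (42.8% to 94.5%), a description with no test. Pcdhgc3 peaks were spread from 51 nt before the first coding base to 1829 nt after it. The 3′UTRs of the beta genes, 23.4 kb in all, held no shared peak, which allows up to 0.157 per kb, while C2C12 1 alone listed 2 peaks there, in Pcdhb16 and Pcdhb19 with 6 reads each. The 5′UTRs of the beta genes held 1 shared peak, in Pcdhb18. The beta coding sequence held 0.678 per kb and the gamma constant 3′UTR 2.86 per kb (0.929 to 6.68).

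**Figure D3:**
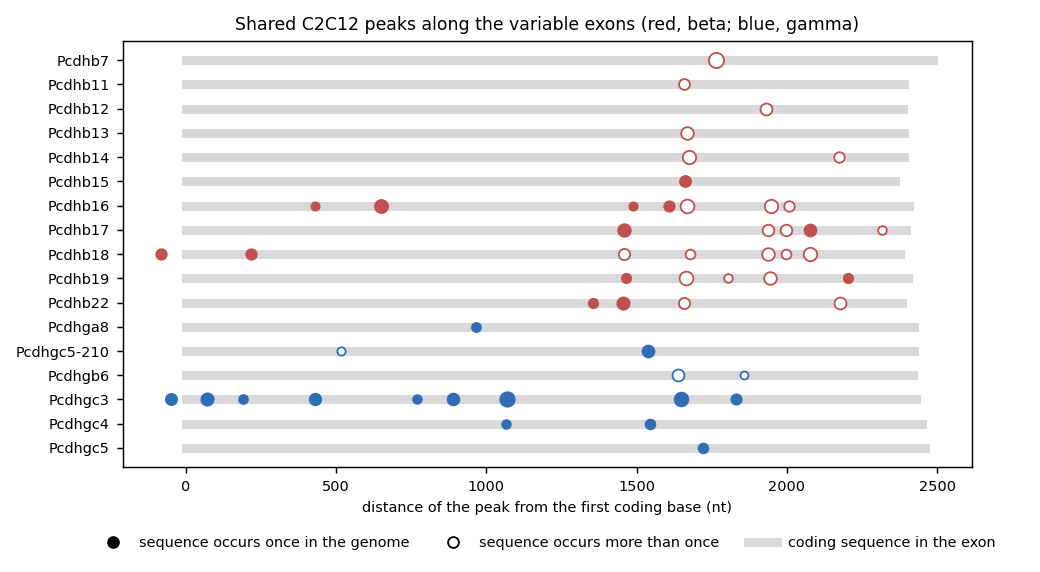
Middle of each shared peak as the distance from the first coding base in nt (horizontal axis), with 1 row per variable exon that holds one and grey bars for its coding sequence. Filled circles are single-copy sequences, open circles sequences that occur more than once, and the circle's size grows with the mean reads per bin; beta peaks line up between 1456 and 2203 nt, and Pcdhgc3 peaks are spread along the exon.

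The motif GGAC, the most common core of N6-methyladenosine sites, was searched in each peak with 20 nt on either side, on the RNA strand. It was found at 22 of the members' 52 shared coding peaks, or 42.3% (28.7% to 56.8%), and at 24.2% (23.2% to 25.2%) of 7656 shared peaks in coding exons of other genes. The clusters differed. Over shared peaks of all regions, GGAC was found at 20 of 40 in the beta cluster and 6 of 28, or 21.4%, in the gamma cluster. The members' higher share thus lay with the beta peaks, and the difference between the clusters was not tested. The letters of the opposite strand, GTCC, were found at 9.62% (3.20% to 21%) of the members' peaks and 22.7% (21.8% to 23.6%) of the others. Windows of 60 nt over the coding sequence of the variable exons held GGAC in 29.3% for beta, 29.3% for gamma and 32.8% for alpha. Among single-copy coding peaks of the members it was found at 8 of 27, or 29.6% (13.8% to 50.2%). All 5 peaks at 1932 to 1948 nt and 7 of the 8 at 1656 to 1678 nt held it. No shared peak of the members lay within 20 nt of a run of 10 G on either strand.

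The reads of the shared peaks were compared between the C2C12 libraries, as a description with no test. The median difference between the libraries was 2.5 reads per bin over the 40 beta peaks and 1.0 over the 28 gamma peaks, and the difference was 3 reads or fewer at 26 and 25 of them. The largest was at Pcdhb17, at 1458 nt, with 19 reads in C2C12 1 and 6 in C2C12 2. The median of the mean reads per bin was 10.5 at the members' coding peaks and 8.10 in coding exons of other genes. Single-copy sequence made up 51.9% of the former and 81.5% of the latter. A read may be counted at up to 10 positions, so these medians are not of like sequence.

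**Figure D4:**
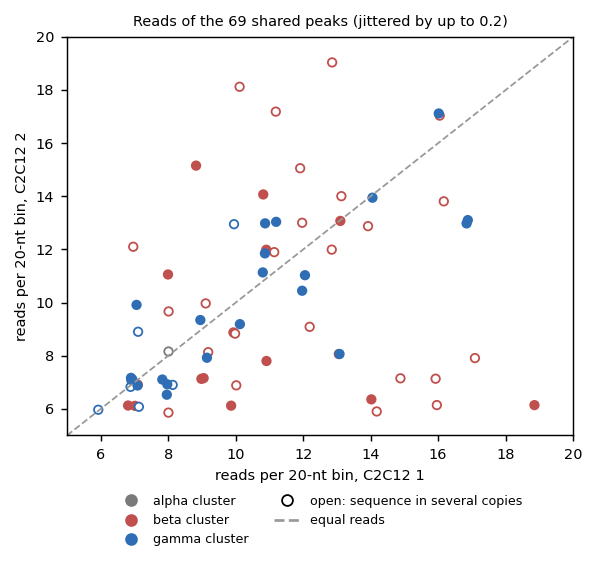
Reads per 20-nt bin of each shared peak in C2C12 1 (horizontal axis) and C2C12 2 (vertical axis), coloured by cluster, with open symbols for sequences in several copies and points moved by up to 0.2 to part them. Gamma peaks lie near the dashed line of equal reads and beta peaks are spread farther from it, up to 19 against 6 reads.

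In ASC-48 hr the clustered protocadherins held few peaks, and all were in the gamma gene. B1T1, B1T2 and B2T1 held 1 peak each, with 6, 5 and 5 reads, and B2T2 held 3 with 14 reads. As shares of each library's peaks these were 0.0123%, 0.00929%, 0.0126% and 0.0154%. All 4 ASC-48 hr libraries lay below the 2 C2C12 libraries. The set was chosen with the C2C12 peaks in view, which can raise the C2C12 shares, so nothing is read from this difference. Of the 24 protein-coding members only Pcdhgc5 held a peak in any ASC-48 hr library, where the background over all protein-coding genes was 25.0%. The ASC-48 hr lists hold 7925 to 19448 peaks and 57953 to 111729 reads in peaks, and the C2C12 lists 523067 and 607366 reads. The depth of the libraries is unknown, and the number of cells, the culture and the depth move with the cell type and cannot be told apart from it. No peak in the alpha or beta genes was listed for ASC-48 hr.

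The ASC-48 hr peaks fell at 4 places. An intronic peak at chr18:37894441-37894460 was called in B1T1, B1T2 and B2T2 with 6, 5 and 4 reads, the only place found in more than 1 library and in both cultures, and it was not called in C2C12. A second intronic peak at chr18:37845001-37845020 was called in B2T1 with 5 reads. The other 2 were in the Pcdhgc3 exon, at chr18:37966461-37966480 and chr18:37967361-37967380, and were called in B2T2 with 4 and 6 reads. The latter was also called in C2C12 2 with 6 reads. All 4 sequences occur once in the genome.

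Other protocadherins, which are single genes outside the clusters, also held peaks in C2C12. Of 12 non-clustered protocadherin genes 5 held a shared peak, Pcdh19 with 14, Pcdh7 with 9, Pcdh1 and Pcdh9 with 3 each and Pcdh15 with 1. The 28 shared peaks of the gamma cluster are those of a merged entry for its listed members, and its leading variable exon, Pcdhgc3, held 9, fewer than Pcdh19. Of 12 genes of promoter choice and chromatin looping 5 held a shared peak, Setdb1 and Smchd1 with 3 each, Wapal with 2, and the cohesin genes Smc3 and Stag1 with 1 each. Ctcf, whose protein acts at the clustered promoters, and the other cohesin genes Rad21, Smc1a and Stag2 held no shared peak in C2C12. In ASC-48 hr, 4 of these 12 genes held a peak in at least 1 library, with 6 in Ctcf, 4 in Wapal, 2 in Stag1 and 1 in Smc1a over the 4 libraries. Of 15 genes for signalling and processing partners 9 held a shared peak in C2C12, led by Wasf2 with 11 and Abi1 with 8, both encoding parts of the WAVE complex that drives actin branching. Of 8 genes listed as cadherins 5 held one. Cdh13, which has 10, encodes a cadherin held by a lipid anchor and is not a classical one, and each of the other 7 genes held at most 3. A peak in ASC-48 hr was held by 2 of the 12 non-clustered protocadherins, Pcdh15 with 8 and Pcdh7 with 3, by 9 of the 15 partner genes, with 28 in Abi1, and by 4 of the 8 cadherins, with 33 in Cdh13, beside the background of 25.0%. The C2C12 shares stand beside the background of 21.8% for protein-coding genes, and the genes differ in length.

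The cell type named by the labels was set beside marker genes. In C2C12, 7 of 9 myoblast markers held a shared peak, beside the background of 21.8% of protein-coding genes, with Itga7 at 11 and Des at 9, while Myod1 and Pax7 held none. In ASC-48 hr 7 of the 9 held a peak in at least 1 library, beside the background of 25.0%, Myod1 and Pax7 among them. Since the clustered protocadherins are best known from neurons, 6 neuronal markers were looked up, of which 5 were found in the annotation by symbol, and only Tubb3 held shared C2C12 peaks, 4 in number. In ASC-48 hr the neuronal markers Rbfox3 and Syt1 held 9 and 2 peaks over the 4 libraries, and Snap25, Syn1 and Tubb3 held none. Col1a1 and Pdgfra of 4 fibroblast markers, Pecam1 of 3 endothelial markers and 0 of 3 blood markers held a shared peak. In ASC-48 hr Pecam1 held 4 peaks over the 4 libraries, and the other endothelial, fibroblast and blood markers held none. Their part in the protocadherin peaks was not tested.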

How the data were processed

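YTHDC1 LACE-seq peaks of 6 libraries were analysed. Per the study's methods and the submitters' processing notes, reads were trimmed with Cutadapt (1.15), freed of pre-rRNA and placed on mm9 with Bowtie (1.2.3) at up to 10 positions per read, and Piranha called peaks per library in 20-nt bins at a p threshold of 0.001. These peak settings are stated for ASC; those for C2C12 are not given in the sources used here. Treatment of duplicate reads is not given either. The deposited signal is reads per 20-nt bin, averaged over the bins of wider peaks and not normalized. The deposited p-value is Piranha's within the library and was used only to filter peaks.

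Peaks were overlapped in Python 3.11.15 (numpy 2.4.6, pandas 2.3.3, scipy 1.17.1, pysam 0.24.0, samtools 1.23.1, matplotlib 3.10.9) with GENCODE vM1 and the NCBIM37 genome, which is mm9. A peak took the region of its middle nucleotide. Constant exon bases lie in at least 3 transcripts of the alpha or gamma cluster and variable exon bases in fewer. Transcripts were used instead of genes, as the annotation merges the genes, and a transcript whose first exon runs into a constant exon was left out. RefSeq gene lengths (GRCm38) served only to name exons. The functions were tested on 400 simulated peaks, of which 400 took the planted place.

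The genes named are the 5 leading members of each cluster by shared peaks, every member with an ASC peak, the constant exons, the 3 highest peaks per cluster and the listed gene sets. Members, lists and the position groups were chosen with earlier results of these data known. No test was run, since the rule used the peaks. Alternatives to the p threshold, reads, overlap, copies, strand, regions and replicates are given in the closing section. Sequences of this chromosome are not printed.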

Additional observations from a re-analysis of the deposited data

Results flagged for a closer look

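Among the 4 ASC-48 hr libraries, B2T2 stood apart from the others with 3 peaks in the clustered protocadherin genes, where each other library held 1, and with 14 reads in those peaks, where the others held 6, 5 and 5. The gap to the next library was 1.0 of the whole range for peaks and 0.889 for reads. B2T2 also had the longest list, with 19448 peaks, and was the only library that listed peaks of 4 reads. As a share of all its peaks B2T2 was not set apart in this way, at 0.0154%. The limit applied to the gap is passed by chance in about 1 of 20 groups of continuous values, a rate that does not hold for tied counts this low, where 1 or 2 peaks decide it.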

How the results depend on the processing

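Of the results on C2C12, the number of shared peaks in the clustered protocadherin genes moved most, from 69 to 39 at p of at most 0.0001, 24 at p of at most 0.00001, 41 with at least 8 reads per bin and 36 with single-copy sequences only, and to 123 and 128 when peaks of a single library were counted. The number of variable exons with a shared peak was 18 and stayed between 12 and 23, and the share of peaks in variable exons stayed between 75.4% and 87.2%. The ratio of constant to variable exon density was 4.66 and rose to 8.38 when the long open reading frames were counted as variable exons, an alternative chosen after seeing the data, and to 7.54 at p of at most 0.00001. Its lowest value was 3.57, in C2C12 1 alone. The share of beta coding peaks beyond the midpoint fell from 91.2% to 75% with single-copy sequences, which was also chosen after seeing the data. The ASC-48 hr count of 6 peaks fell to 2 at p of at most 0.0001 and to 0 both at p of at most 0.00001 and with at least 8 reads per bin, and was 3 to 5 when a library was left out, with 3 without B2T2. These filters keep fewer peaks by construction, and the smallest peak that a library lists limits what the lists can show.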
